A study of Mus musculus with 14 samples.

Results

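Matrix metalloproteinases (MMPs), ADAMTS proteases and tissue inhibitors of metalloproteinases (TIMPs) were examined in the aorta and liver of BT3xHuBL and HuBL mice. Members were the rows of both count tables whose gene name starts with Mmp, Adamts or Timp followed by a digit, which gave 46 genes (23 Mmp, 19 Adamts and 4 Timp) of 24732 features. ADAMTS-like genes, which carry no protease domain, fall outside this rule. The 14 libraries form 4 groups, 3 BT3xHuBL aortas, 3 HuBL aortas, 4 BT3xHuBL livers and 4 HuBL livers, each from mice labelled with a normal diet and a time of 52 weeks. Strain names are abbreviated in the labels. From published work, HuBL denotes a human APOB transgene in mice without the LDL receptor, carried by both genotypes here, and BT3 a T cell receptor transgene directed at apolipoprotein B. The labels do not say whether the libraries came from separate animals, and p-values measure only the spread among these libraries.

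MMPs are secreted or membrane-bound proteases with a zinc ion in the active site. They are made as inactive precursors that other proteases cut open, and together they degrade collagens, elastin, laminins and proteoglycans. ADAMTS proteases are secreted relatives that cleave proteoglycans such as versican and aggrecan, trim procollagens or cut von Willebrand factor. TIMPs bind the active site and block MMPs, and Timp3 also blocks several ADAMTS proteases. In the artery wall these enzymes are known for remodelling the collagen cap of plaques, and in the liver for turning over scar matrix.

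Of the 23 Mmp genes, 10 lie side by side in a stretch of 427.1 kb of chromosome 9 (bases 7272514 to 7699585 of GRCm38, GENCODE M21). In chromosome order these are Mmp13, Mmp12, Mmp1b, Mmp3, Mmp1a, Mmp10, Mmp8, Mmp27, Mmp20 and Mmp7. RefSeq starts on GRCm38.p6 were at hand for 32 of the 46 members, including the 10 clustered genes. The AP-1 motif, the binding sequence of Fos and Jun proteins, was searched in the 250 bases before each start as TGAGTCA or TGACTCA, each of which reads as the other on the opposite strand. At least 1 start of 7 clustered genes held it, and none of the other 22 members with such a start did. The members without a start, among them Mmp2, Mmp9, Mmp16, Mmp17 and Mmp19, all lie outside the cluster. They were not searched for the motif. Over all 27025 genes with such starts, 5.16% held it before at least 1 start. The last 120 bases before the start are given for the 7 genes that held it, 5′ to 3′ on the gene's own strand, with the motif in capitals. They lie at chr9:7272394-7272513, chr9:7347254-7347373, chr9:7388027-7388146 (minus strand, the others plus), chr9:7445702-7445821, chr9:7464021-7464140, chr9:7502222-7502341 and chr9:7691970-7692089. Mmp12 and Mmp7 each have another RefSeq start without the motif. For Mmp12 the window of that start, chr9:7344277-7344396, lies at the gene's beginning in GENCODE M21 (base 7344381). The Mmp12 window shown lies inside the gene, before a start further downstream.
Mmp13: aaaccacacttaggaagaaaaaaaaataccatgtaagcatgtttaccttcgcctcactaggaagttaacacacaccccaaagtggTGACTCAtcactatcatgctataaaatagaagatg
Mmp12: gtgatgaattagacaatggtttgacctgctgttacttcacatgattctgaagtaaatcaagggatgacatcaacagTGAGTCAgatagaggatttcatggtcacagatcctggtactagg
Mmp1b: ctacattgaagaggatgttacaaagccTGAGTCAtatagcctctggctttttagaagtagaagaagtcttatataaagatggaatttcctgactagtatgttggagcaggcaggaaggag
Mmp3: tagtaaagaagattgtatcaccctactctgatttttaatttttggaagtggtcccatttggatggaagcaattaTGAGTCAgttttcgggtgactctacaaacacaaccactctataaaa
Mmp1a: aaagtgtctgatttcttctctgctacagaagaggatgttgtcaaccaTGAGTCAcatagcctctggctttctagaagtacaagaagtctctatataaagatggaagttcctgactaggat
Mmp10: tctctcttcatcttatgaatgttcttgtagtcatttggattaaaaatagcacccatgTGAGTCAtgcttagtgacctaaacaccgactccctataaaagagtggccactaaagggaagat
Mmp7: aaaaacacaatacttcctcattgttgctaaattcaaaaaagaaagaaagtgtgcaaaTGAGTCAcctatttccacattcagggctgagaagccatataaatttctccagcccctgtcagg

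Levels within this cluster differed widely, also among the 7 genes that hold the motif. Mmp12, the elastase of macrophages, and Mmp3 (stromelysin-1), which also activates other MMPs, were the highest Mmp genes of the aorta, and Mmp13, the main collagenase of mice, came next in the cluster. Mmp1a and Mmp1b, mouse relatives of human interstitial collagenase, also hold the motif and had 0 counts in all 14 libraries. So did Mmp20, the enamel protease, which lacks it. GENCODE M21 lists Mmp1a as a polymorphic pseudogene. Mmp10 (stromelysin-2), with the motif, ran from 1.41 to 2.31 CPM in the aorta and had 0 counts in the liver. Mmp8, the collagenase of neutrophils, and Mmp27, both without the motif, ran from 9.26 to 12.5 CPM and from 11.2 to 17.4 CPM in the aorta. Mmp7 (matrilysin), with the motif, had 0 counts in every aorta and 0.0595 to 0.971 CPM in livers. CPM are the deposited counts divided by library size, scaled by TMM within each tissue. The libraries read transcripts near their 3′ ends, so levels of different genes are compared without a length correction.

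**Figure D1:**
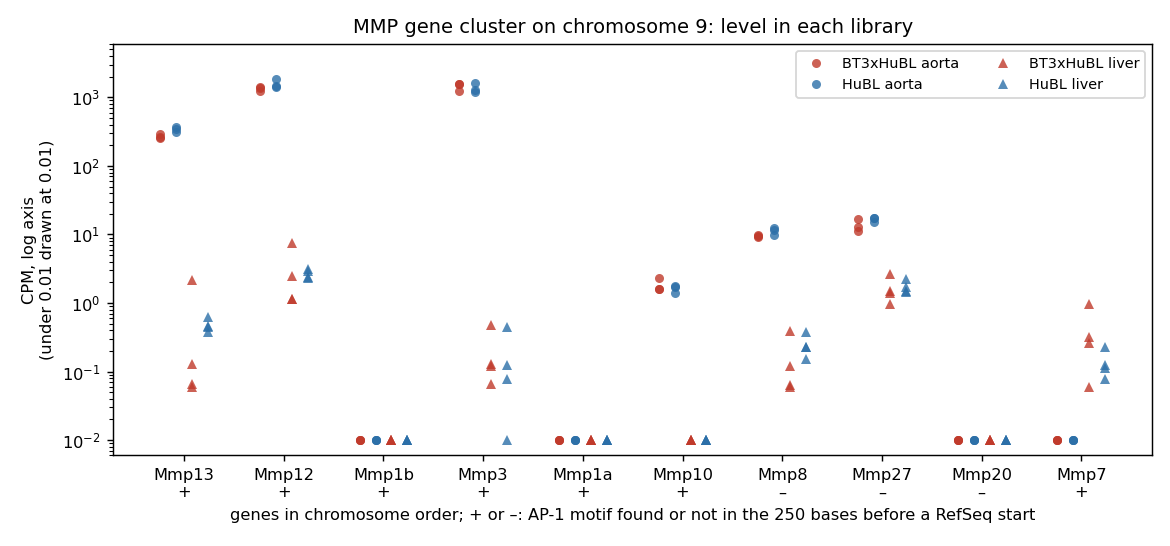
CPM on a log axis for the 10 clustered Mmp genes in chromosome order, 1 point per library, with circles for aortas and triangles for livers, values under 0.01 drawn at 0.01, and a plus sign under genes with the AP-1 motif. Mmp13, Mmp12 and Mmp3 stand above the other clustered genes in every aorta, and Mmp1b, Mmp1a and Mmp20 lie at 0 throughout.

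Depth was 41933263 to 65539765 counts in aorta libraries and 13228123 to 17992459 in liver libraries, and 3 counts, the limit that a count of 0 allows, equal 0.0458 to 0.0715 CPM in the aorta and 0.167 to 0.227 CPM in the liver. These limits cover counting error only. The summed smooth muscle markers ran from 12103 to 16484 CPM in BT3xHuBL aortas and 13313 to 15572 CPM in HuBL aortas, and the summed hepatocyte markers from 112165 to 145711 CPM in BT3xHuBL livers and 120495 to 144798 CPM in HuBL livers. Of 126 variable segments of the T cell receptor, 0 reached 10 counts in every BT3xHuBL library while lying above every HuBL library in either tissue, so the counts do not check the genotype labels. Members overlap other genes in places: exons of 13 members overlap an exon of another gene in GENCODE M21, each on the opposite strand. The feature names of Mmp19 and Mmp24 end in IMP_OVL, a mark whose meaning is not stated. The sources used here do not give the strand setting. Reads of pairs such as Adamts7 and Tbc1d2b, Timp3 and Syn3, or Timp4 and Syn2 therefore cannot be told apart where they overlap. The members Mmp12 and Mmp1b overlap each other at their 3′ ends, where these libraries read, so the 0 counts of Mmp1b carry this limit too.

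Members made up 0.913% to 1.04% of all counts in aorta libraries and 0.0228% to 0.035% in liver libraries. In the aorta 12 members averaged at least 100 CPM, and in the liver none did. Over the 46 genes, Timp2, Timp3 and Mmp12 held 56.8% of the summed aorta level, and Mmp19, Mmp14 and Mmp15 held 55.9% of the summed liver level. In HuBL mice, edgeR's quasi-likelihood F-test (Benjamini-Hochberg adjusted p, threshold 0.05) called all 34 tested members different between aorta and liver, 31 higher and 3 lower in the aorta. Over all features tested 83.7% were called, 44.5% higher (6421 features) and 39.2% lower (5664). This split rests on the scaling. TMM over both tissues, used for these fold changes, put the median of all features at 0.0956, and plain library sizes, tried after the data were seen, put it at 0.85, with 9203 features called higher and 3268 lower. That is a shift of 0.758 on the log2 scale, and 33 members would be called, all but Adamts7. CPM in the text are scaled within each tissue, so their ratios lie nearer to the plain library sizes. Members reached this test by passing a filter on low counts, and one that passed through its aorta level alone had to differ, so the count is a description only. Aorta libraries were also deeper than liver libraries in every case, and each tissue has its own count table and its own range of library numbers. Tissue therefore cannot be told apart from depth or from a library batch.

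Only Adamts13, Mmp15 and Adamts7 of the tested members were lower in HuBL aortas than in HuBL livers. Adamts13, which cuts von Willebrand factor and is made by hepatic stellate cells, had 1, 0 and 1 counts in HuBL aortas and averaged 2.89 ± 0.288 CPM in HuBL livers (SD, n = 4). Mmp15, a membrane-type MMP, averaged 3.22 ± 0.442 CPM in HuBL aortas (SD, n = 3) and 32.2 ± 1.96 CPM in HuBL livers (SD, n = 4), a log2 fold change of −4.06 (SE 0.13) for aorta over liver. Adamts7, which cleaves the cartilage oligomeric matrix protein COMP, averaged 12 ± 0.793 CPM in HuBL aortas (SD, n = 3) and 15.1 ± 4.96 CPM in HuBL livers (SD, n = 4), a log2 fold change of −1.09 (SE 0.23) with TMM and −0.33 with plain library sizes (adjusted p = 0.187 in edgeR). With TMM the adjusted p of these 3 genes in edgeR lay between 8.34e-11 and 0.00108. Mmp19, a secreted MMP found in many tissues, lay closest between the tissues among members higher in the aorta, with 153 ± 10.8 CPM in HuBL aortas (SD, n = 3) and 75.7 ± 1.95 CPM in HuBL livers (SD, n = 4) and a log2 fold change of 0.27 (SE 0.08, adjusted p = 0.00933) in edgeR with TMM, and 1.03 with plain library sizes. At the other end, Mmp3 averaged 1367 ± 217 CPM in HuBL aortas (SD, n = 3) and 0.164 ± 0.199 CPM in HuBL livers (SD, n = 4), a log2 fold change of 12.37 (SE 0.34) that rests on 2, 1, 6 and 0 counts in the HuBL livers.

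**Figure D2:**
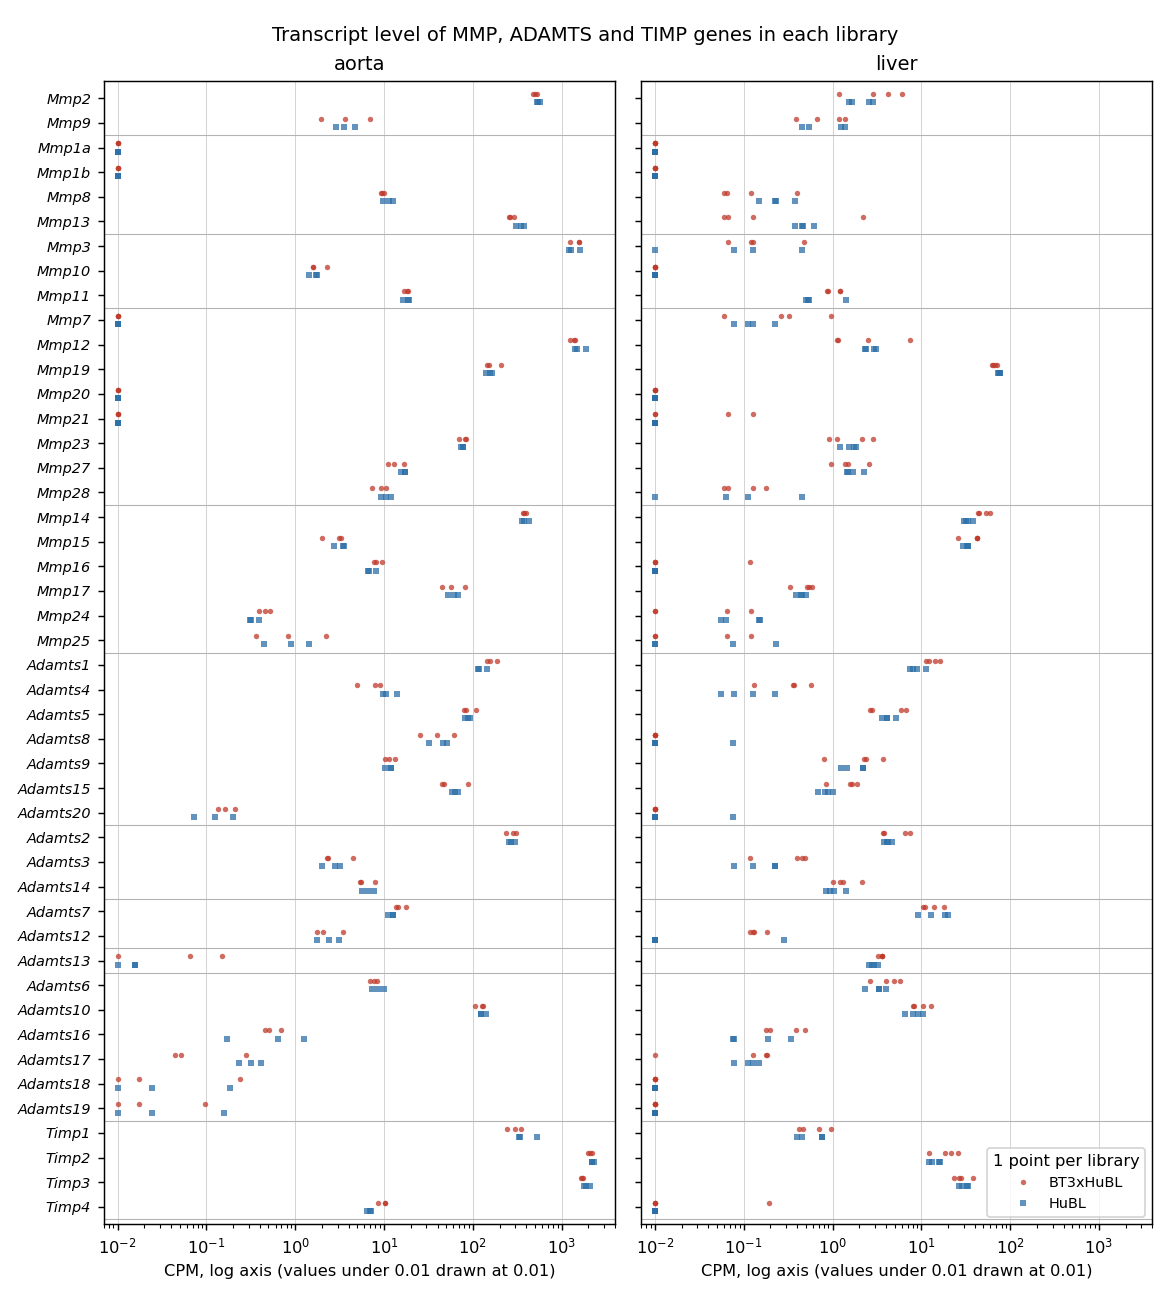
CPM on a log axis for the 46 members, grouped by role from gelatinases at the top to TIMPs at the bottom, in aorta (left) and liver (right), with 1 point per library and BT3xHuBL drawn above HuBL. Most members lie further right in the aorta, Mmp15, Adamts13 and Mmp7 lie further right in the liver, and the genotypes overlap for most genes.

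In the aorta BT3xHuBL and HuBL mice were then compared, which asks whether the added receptor goes with another level of matrix proteases or their inhibitors in the vessel wall. No member passed. The 38 tested members had a median log2 fold change of −0.030, and all 15400 tested features one of −0.0044. Of these members 18 lay above 0, as did 48.5% of all features, and 20 lay below it, as did 51.5%. At a Benjamini-Hochberg adjusted p under 0.05, edgeR called 0 members and 0.026% of all features. Groups did not overlap for 7 members (9.27% of all features), 3 with BT3xHuBL above (4.38%) and 4 with BT3xHuBL below (4.9%). At an unadjusted p under 0.05 there were 5 members (13.2%), and 4.08% of all features reached that level. DESeq2 and limma-voom also called 0 members. The 7 B and plasma cell markers measured lay below 0 in every case, and their sum ran from 62.4 to 169 CPM in BT3xHuBL aortas and 310.1 to 616 CPM in HuBL aortas; their part in the member values was not tested. In whole tissue, fewer cells of a type and less RNA per cell cannot be told apart.

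Adamts1, a versican- and aggrecan-cleaving protease, lay higher in BT3xHuBL aortas. It had 158, 187 and 144 CPM in BT3xHuBL aortas, against 118, 143 and 115 CPM in HuBL aortas. All 3 BT3xHuBL libraries lay above all 3 HuBL libraries, the nearest pair being 144 and 143 CPM. The log2 fold change was 0.38 (SE 0.11, adjusted p = 0.899) in edgeR. Adamts4, an inducible aggrecan-cleaving protease, lay on the opposite side. It had 7.98, 4.97 and 8.97 CPM in BT3xHuBL aortas, against 10.6, 9.78 and 14 CPM in HuBL aortas. These groups did not overlap either, and the log2 fold change was −0.65 (SE 0.23, adjusted p = 1) in edgeR. Adamts7 had 14.5, 17.6 and 13.6 CPM in BT3xHuBL aortas, against 11.1, 12.5 and 12.5 CPM in HuBL aortas, again without overlap, with a log2 fold change of 0.34 (SE 0.13, adjusted p = 1) in edgeR.

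Mmp13 had the smallest p of the members in the aorta (unadjusted 0.00297 in edgeR's test across all features). It had 260.2, 287 and 253 CPM in BT3xHuBL aortas, against 373, 348 and 308 CPM in HuBL aortas. Every BT3xHuBL library lay below every HuBL library, and the log2 fold change was −0.36 (SE 0.09, adjusted p = 0.772) in edgeR. DESeq2 gave Mmp13 an adjusted p of 0.0532. Chondrocytes also make Mmp13. Their summed markers ran from 258 to 464 CPM in BT3xHuBL aortas and 319 to 421 CPM in HuBL aortas, with overlap. Of these 8 genes 3 lay above 0. The summed markers of lipid-laden macrophages and of fibroblasts, given below, lay lower in BT3xHuBL aortas without overlap. Those of smooth muscle and of macrophages in general overlapped. The part of any of these lists in the Mmp13 value was not tested. The other collagenase with counts, Mmp8, had a log2 fold change of −0.24 (SE 0.14). Of the gelatinases, which cut denatured and basement membrane collagen, Mmp2 had 474, 497 and 529 CPM in BT3xHuBL aortas, against 533, 569 and 539 CPM in HuBL aortas. These did not overlap, with a log2 fold change of −0.13 (SE 0.08, adjusted p = 1) in edgeR.

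Mmp9, the other gelatinase, ran from 1.95 to 6.88 CPM in BT3xHuBL aortas and from 2.89 to 4.69 CPM in HuBL aortas. Mmp25 (leukolysin), a membrane-bound MMP of neutrophils, ran from 0.357 to 2.23 CPM in BT3xHuBL aortas and from 0.450 to 1.42 CPM in HuBL aortas. In both genes BT3xHuBL replicate 1 was the highest and replicate 3 the lowest of all 6 aortas. The summed neutrophil markers (9 genes measured) followed that order within BT3xHuBL, with 85.2, 80.0 and 37.4 CPM in replicates 1, 2 and 3. They were 27.6, 50.4 and 35.1 CPM in HuBL replicates 1, 2 and 3. Within HuBL neither Mmp9 nor Mmp25 kept the order of that sum. Mmp8, the collagenase of neutrophils, did not follow it within BT3xHuBL. It had 9.41, 9.26 and 9.88 CPM in BT3xHuBL replicates 1, 2 and 3, against 12.5, 11.5 and 9.72 CPM in HuBL. The part of the neutrophil markers in these values was not tested.

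Mmp12 and Mmp3, the highest MMPs of the aorta, overlapped between genotypes, as did Mmp14 and Mmp19. Mmp12 had 1226, 1430.3 and 1362 CPM in BT3xHuBL aortas, against 1475, 1875 and 1421 CPM in HuBL aortas. Its log2 fold change was −0.25 (SE 0.12, adjusted p = 1) in edgeR, and −0.11 without HuBL replicate 2. Mmp3 had 1552, 1235 and 1576 CPM in BT3xHuBL aortas, against 1281, 1615 and 1207 CPM in HuBL aortas, with a log2 fold change of 0.089 (SE 0.14). HuBL replicate 2 was the highest HuBL library for both. Mmp14, the membrane protease that activates Mmp2, had 373, 392 and 364 CPM in BT3xHuBL aortas, against 354, 376 and 427 CPM in HuBL aortas, a log2 fold change of −0.035 (SE 0.09). Mmp19 had 154, 207 and 146 CPM in BT3xHuBL aortas, against 154, 164 and 142 CPM in HuBL aortas, a log2 fold change of 0.14 (SE 0.13). The summed markers of lipid-laden macrophages (8 genes, 2 above 0) did not overlap. They ran from 24785 to 29445 CPM in BT3xHuBL aortas and 29709 to 35479 CPM in HuBL aortas. Those of macrophages in general (7 genes measured, 5 above 0) overlapped, with 2585 to 2794 CPM in BT3xHuBL aortas and 2389 to 2888 CPM in HuBL aortas. The part of either list in the Mmp12 value was not tested.

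Among the inhibitors, Timp4 lay higher and the other 3 lower in BT3xHuBL aortas, and only Timp4 had an unadjusted p under 0.05 (0.00587 in edgeR). Timp4, the least abundant of the 4, had 8.57, 10.3 and 10.2 CPM in BT3xHuBL aortas, against 6.39, 7.16 and 7.0 CPM in HuBL aortas. The genotypes did not overlap, and the log2 fold change was 0.50 (SE 0.14, adjusted p = 0.899) in edgeR. Timp4 is known from heart and fat tissue. The summed adipocyte markers ran from 655 to 900.5 CPM in BT3xHuBL aortas and 444 to 723 CPM in HuBL aortas, with 8 of 8 genes above 0, and the summed striated muscle markers from 61.8 to 78.9 CPM in BT3xHuBL aortas and 36.3 to 40.6 CPM in HuBL aortas, with 6 of 8 tested genes above 0 and Tcap called higher by edgeR. The adipocyte ranges overlapped between genotypes and the muscle ranges did not. Their part in the Timp4 value was not tested.

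Timp1, the inducible inhibitor, had 301, 245 and 351 CPM in BT3xHuBL aortas, against 329.9, 525 and 341 CPM in HuBL aortas. HuBL replicate 2 stood highest, and the log2 fold change of −0.41 (SE 0.21, adjusted p = 1) in edgeR was −0.17 without that library. Timp2, which partners Mmp14 in Mmp2 activation, had 2004, 2066 and 2216 CPM in BT3xHuBL aortas, against 2194, 2292 and 2217 CPM in HuBL aortas, with overlap and a log2 fold change of −0.093 (SE 0.09). Timp3, which stays bound to the matrix, had 1751, 1658 and 1679.9 CPM in BT3xHuBL aortas, against 1779, 1893 and 2081 CPM in HuBL aortas. Its genotypes did not overlap, with a log2 fold change of −0.18 (SE 0.10, adjusted p = 1) in edgeR. Summed over the 4 genes, TIMP level ran from 3979.7 to 4257 CPM in BT3xHuBL aortas and 4309 to 4717 CPM in HuBL aortas, without overlap. The summed fibroblast markers, 7 genes of which 2 lay above 0, did not overlap either, with 13232 to 14776 CPM in BT3xHuBL aortas and 15038 to 15709.9 CPM in HuBL aortas; their part in the TIMP level was not tested.

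Of the procollagen-trimming proteases, Adamts2 had 306, 237 and 286 CPM in BT3xHuBL aortas, against 256, 270.2 and 296 CPM in HuBL aortas, with overlap and a log2 fold change of 0.012 (SE 0.11). Adamts10, which acts on fibrillin microfibrils, had 127, 106 and 131 CPM in BT3xHuBL aortas, against 123, 123 and 139 CPM in HuBL aortas, also with overlap and a log2 fold change of −0.079 (SE 0.10). For the other tested members every log2 fold change was within 2 SE of 0. The membrane-type Mmp15, Mmp16, Mmp17 and Mmp24 gave −0.20, 0.25, 0.01 and 0.43. The secreted Mmp10, Mmp11, Mmp27 and Mmp28 gave 0.17, −0.028, −0.28 and −0.23, and the membrane-anchored Mmp23 gave 0.031. The proteoglycan-cleaving Adamts5, Adamts8, Adamts9, Adamts15 and Adamts20 gave 0.046, −0.033, 0.03, −0.082 and 0.29. Adamts3 and Adamts14, the other procollagen proteases, gave 0.17 and −0.083, and Adamts12, a COMP-cleaving relative of Adamts7, gave 0.019. Adamts6, Adamts16 and Adamts17 gave −0.17, −0.33 and −1.35, the last on 3, 3 and 17 counts in BT3xHuBL aortas, against 15, 13 and 26 counts in HuBL aortas. Without BT3xHuBL replicate 2, Mmp15 gave −0.0086, Mmp28 −0.088 and Adamts17 −0.94, and Adamts4, described above, −0.43. The 8 members not tested, Adamts13, Adamts18, Adamts19, Mmp1a, Mmp1b, Mmp7, Mmp20 and Mmp21, had at most 16 counts in any aorta.

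**Figure D3:**
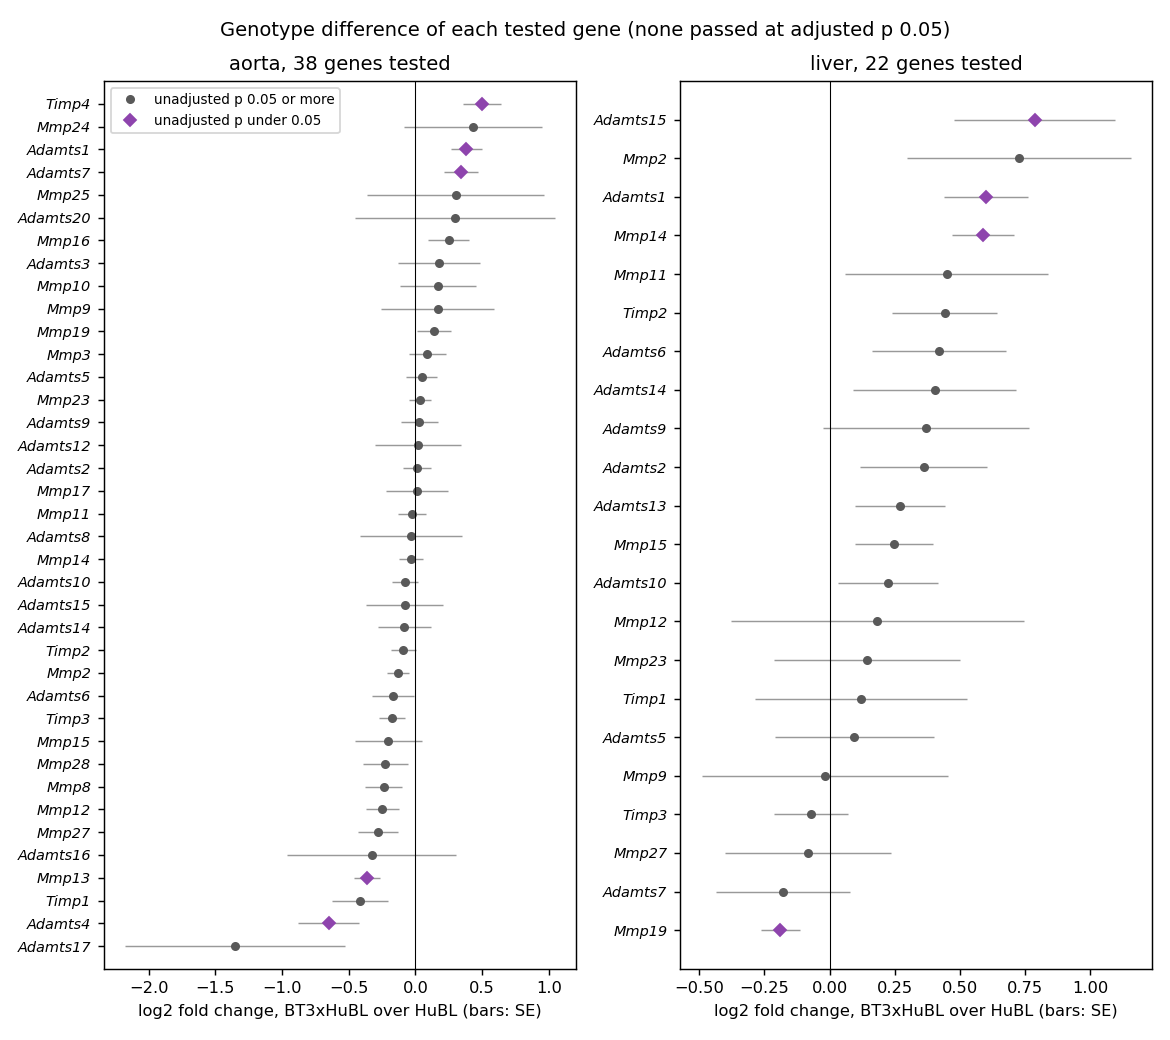
Log2 fold change of BT3xHuBL over HuBL with its standard error for each tested member, in aorta (38 genes, left) and liver (22 genes, right); diamonds mark an unadjusted p under 0.05. Aorta values lie on both sides of 0, and 17 of the 22 liver values lie above it, with no gene past the adjusted threshold in either tissue.

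The same comparison in the liver asks whether the receptor goes with another level of these genes outside the vessel. More members lay above 0 than below. The 22 tested members had a median log2 fold change of 0.26, and all 12453 tested features one of 0.0092. Of these members 17 lay above 0, as did 51.8% of all features, and 5 lay below it, as did 48.2%. At a Benjamini-Hochberg adjusted p under 0.05, edgeR called 0 members and 0% of all features, and 4 members (18.2%) had an unadjusted p under 0.05, as did 11.1% of all features. DESeq2 called 133 of the 12453 features, among them 1 member, Mmp14 (adjusted p = 0.00739), and limma-voom called 0 members. Without BT3xHuBL replicate 1 the median was 0.10 and 14 members lay above 0. Among single members the log2 fold change without that library was 0.16 for Adamts2, 0.035 for Adamts9, 0.069 for Adamts10, 0.14 for Adamts14, 0.34 for Mmp2 and 0.28 for Timp2.

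Mmp14 had the smallest p of the members in the liver (unadjusted 0.000424 in edgeR's test across all features). It had 53.4, 43.2, 44.5 and 60.1 CPM in BT3xHuBL livers, against 33.2, 31.8, 30.6 and 37.9 CPM in HuBL livers. All 4 BT3xHuBL libraries lay above all 4 HuBL libraries, and the log2 fold change was 0.59 (SE 0.12, adjusted p = 0.182) in edgeR, from 0.49 to 0.66 with 1 library left out in turn. Adamts1 had 16.3, 14.2, 11.2 and 12.2 CPM in BT3xHuBL livers, against 8.07, 7.48, 11.2 and 8.83 CPM in HuBL livers. The lowest BT3xHuBL and the highest HuBL library were level at 11.2 CPM to 3 digits, the BT3xHuBL one being slightly higher, and the log2 fold change was 0.60 (SE 0.16, adjusted p = 0.281) in edgeR. Adamts15, another versican-cleaving protease, had 1.64, 1.59, 0.838 and 1.90 CPM in BT3xHuBL livers, against 1.01, 0.694, 0.827 and 0.900 CPM in HuBL livers. BT3xHuBL replicate 3 lay within the HuBL range, and the log2 fold change was 0.79 (SE 0.31, adjusted p = 0.403) in edgeR.

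Mmp19, the most abundant member in the liver, was the 1 gene on the lower side with an unadjusted p under 0.05 (0.0281 in edgeR). It had 62.3, 63.9, 67.7 and 71.4 CPM in BT3xHuBL livers, against 77.8, 75.2, 76.4 and 73.2 CPM in HuBL livers. The genotypes did not overlap, and the log2 fold change was −0.19 (SE 0.08, adjusted p = 0.405) in edgeR. Groups did not overlap for 3 liver members (6.57% of all features), Mmp14 and Adamts1 with BT3xHuBL above (2.99%) and Mmp19 with BT3xHuBL below (3.58%).

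**Figure D4:**
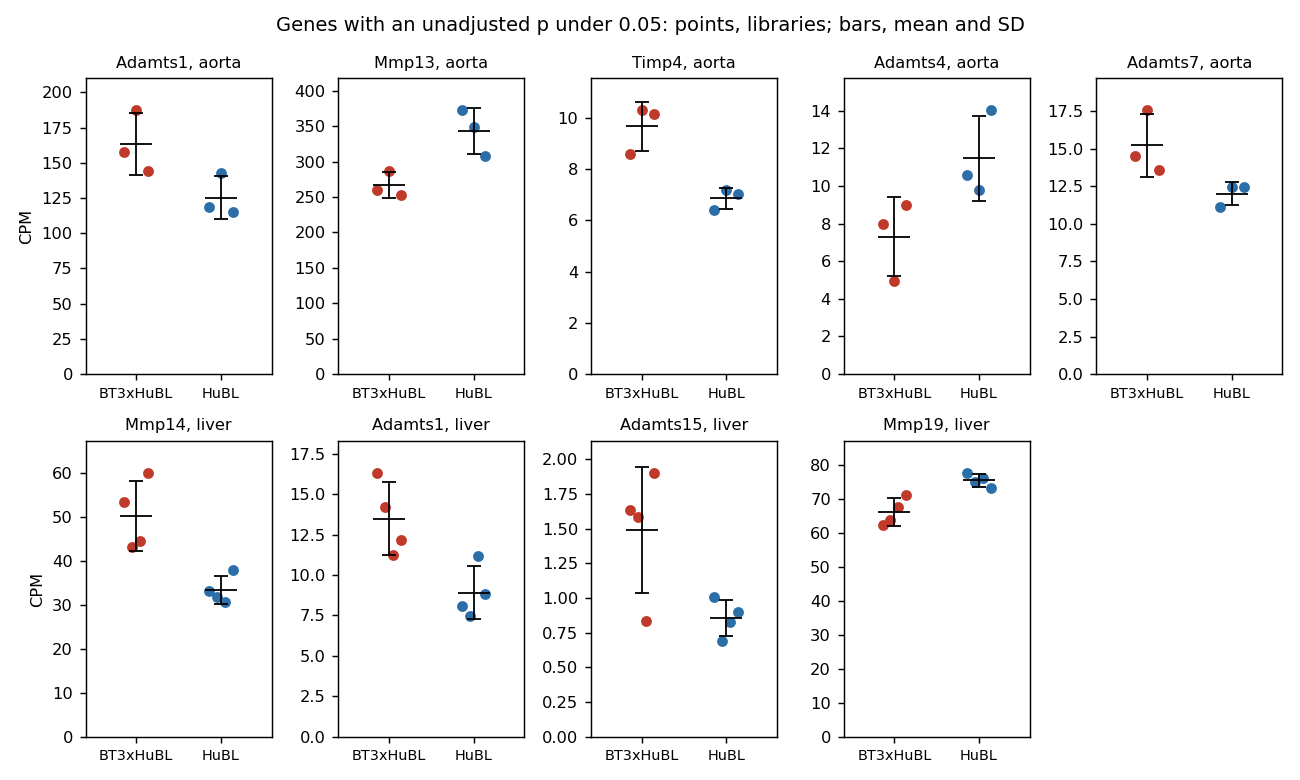
CPM in each library for the 9 gene and tissue pairs with an unadjusted p under 0.05, with BT3xHuBL left of HuBL, points for libraries and bars for the mean and SD. The genotypes separate in every panel but Adamts15 in liver, where 1 BT3xHuBL library lies within the HuBL range.

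Membrane-type Mmp15, a gene of high level in the liver, had 41.9, 25.7, 42.9 and 42.3 CPM in BT3xHuBL livers, against 29.4, 32.3, 33.5 and 33.6 CPM in HuBL livers. BT3xHuBL replicate 2 was the lowest of the 8 libraries and the other 3 the highest, with a log2 fold change of 0.25 (SE 0.15). Timp2 had 25.6, 12.3, 21.8 and 18.3 CPM in BT3xHuBL livers, against 12.3, 13.1, 15.6 and 16.4 CPM in HuBL livers, with overlap and a log2 fold change of 0.44 (SE 0.20, adjusted p = 0.451) in edgeR. Timp3 had 37.8, 23.4, 26.7 and 27.9 CPM in BT3xHuBL livers, against 26.5, 28.9, 33.4 and 33.0 CPM in HuBL livers, a log2 fold change of −0.071 (SE 0.14). BT3xHuBL replicate 1 was the highest library for both inhibitors and replicate 2 the lowest BT3xHuBL library. Timp1 had 0.971, 0.462, 0.709 and 0.416 CPM in BT3xHuBL livers, against 0.757, 0.771, 0.451 and 0.394 CPM in HuBL livers, a log2 fold change of 0.12 (SE 0.41). Timp4 had 3 counts in 1 BT3xHuBL liver and 0 in the others and in every HuBL liver.

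Among further ADAMTS genes, Adamts7 had 18.2, 10.5, 10.9 and 14 CPM in BT3xHuBL livers, against 18.4, 13.0, 9.18 and 19.9 CPM in HuBL livers, with wide overlap and a log2 fold change of −0.18 (SE 0.26). Adamts10 had 13.0, 8.12, 10.5 and 8.20 CPM in BT3xHuBL livers, against 6.49, 8.10, 9.10 and 10.3 CPM in HuBL livers, a log2 fold change of 0.23 (SE 0.19). Adamts2 had 7.52, 3.70, 6.57 and 3.81 CPM in BT3xHuBL livers, against 3.85, 4.63, 4.14 and 4.22 CPM in HuBL livers, a log2 fold change of 0.36 (SE 0.24). BT3xHuBL replicates 1 and 3 lay above every HuBL library in Adamts2, and replicates 2 and 4 lay below every one. Adamts5, an aggrecan-cleaving protease, showed that split too. It had 5.94, 2.64, 6.64 and 2.79 CPM in BT3xHuBL livers, against 4.10, 5.17, 4.06 and 3.60 CPM in HuBL livers, a log2 fold change of 0.095 (SE 0.30). Adamts6 had 5.70, 4.89, 2.64 and 4.04 CPM in BT3xHuBL livers, against 2.33, 3.32, 3.99 and 3.32 CPM in HuBL livers, a log2 fold change of 0.42 (SE 0.26). Adamts13 had 3.22, 3.57, 3.61 and 3.57 CPM in BT3xHuBL livers, against 2.96, 2.54, 3.23 and 2.81 CPM in HuBL livers, a log2 fold change of 0.27 (SE 0.17). For these last 2 genes the genotypes overlapped.

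Remaining tested members in the liver had few counts. Mmp2, Mmp11 and Mmp12 gave log2 fold changes of 0.73 (SE 0.43), 0.45 (SE 0.39) and 0.18 (SE 0.56). Mmp12 had 7.40, 2.51, 1.16 and 1.13 CPM in BT3xHuBL livers, against 2.90, 2.39, 2.33 and 3.09 CPM in HuBL livers, and without BT3xHuBL replicate 1 its log2 fold change was −0.76. Mmp9, Mmp23 and Mmp27 gave −0.019, 0.14 and −0.083, and Adamts9 and Adamts14 gave 0.37 and 0.40. The 24 members not tested had at most 36 counts in any liver. They were Mmp1a, Mmp1b, Mmp3, Mmp7, Mmp8, Mmp10, Mmp13, Mmp16, Mmp17, Mmp20, Mmp21, Mmp24, Mmp25, Mmp28, Adamts3, Adamts4, Adamts8, Adamts12, Adamts16, Adamts17, Adamts18, Adamts19, Adamts20 and Timp4.

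Marker levels of the liver's matrix-producing cells stand beside these values. The summed hepatic stellate cell markers ran from 127 to 161 CPM in BT3xHuBL livers and 108 to 141 CPM in HuBL livers, with 5 of 7 genes above 0 and a median log2 fold change of 0.55. The summed fibroblast markers ran from 189 to 319 CPM in BT3xHuBL livers and 191 to 221 CPM in HuBL livers, with 6 of 6 tested genes above 0 and a median of 0.64. BT3xHuBL replicates 1 and 3 were the 2 highest livers in the fibroblast sum, as in Adamts2 and Adamts5. No marker list had a called gene in the liver, and neither list had a marker at 0 counts in all livers. Markers of other cell types lay above 0 too. These were 5 of 6 tested bile duct markers (median 0.78), 4 of 4 adipocyte markers (median 0.16) and 3 of 3 neutrophil markers (median 0.21). The summed levels of these lists overlapped between genotypes. Some marker lists lay lower in BT3xHuBL livers. The log2 fold changes of the 6 tested T cell markers were all negative (median −1.04), 5 of them had an unadjusted p under 0.05 in edgeR, and the summed level ran from 4.93 to 7.93 CPM in BT3xHuBL livers and 7.98 to 18.6 CPM in HuBL livers, without overlap. Those of 4 of the 5 tested smooth muscle markers were negative (median over the 5, −0.56), and the summed level ran from 13.5 to 22.4 CPM in BT3xHuBL livers and 19.5 to 40.7 CPM in HuBL livers. Those of the 7 B and plasma cell markers were all negative (median −0.37). The part of any of these cells in the Mmp14, Adamts1 and other values was not tested. Lists of this kind and the members themselves were chosen with earlier results of these data known.

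Whether the genotype difference itself differed between tissues was tested on all 14 libraries. At a Benjamini-Hochberg adjusted p under 0.05, edgeR called 0 members for the interaction and 0% of the 14912 features. Of 36 tested members 9 lay above 0, as did 49% of all features, and 27 below it, as did 51%. Members not tested in the liver alone are among the 36, so some of these signs rest on almost no liver counts. Mmp10 had 0 counts in the livers, and Adamts8, Mmp16 and Timp4 had 1, 2 and 3, each in 1 liver. Their interactions were 0.18, 2.97, −3.54 and −3.85. Further, 4 of the 36 members had an unadjusted p under 0.05 (11.1%), and so did 8.16% of all features. DESeq2 called 0 members and 44 features. For Mmp14 the interaction, the aorta log2 fold change minus that of the liver, was −0.61 (SE 0.17, adjusted p = 0.46) in edgeR. Its genotype difference was −0.035 in the aorta and 0.59 in the liver. For Mmp19 it was 0.34 (SE 0.15, adjusted p = 0.602) in edgeR, with 0.14 in the aorta and −0.19 in the liver. For Adamts4 it was −2.23 (SE 0.65, adjusted p = 0.46) in edgeR, resting in the liver on 6, 2, 9 and 6 counts in BT3xHuBL livers, against 2, 1, 3 and 1 counts in HuBL livers. For Adamts13 it was 2.04 (SE 1.07, adjusted p = 0.598) in edgeR, resting in the aorta on 0, 10 and 4 counts in BT3xHuBL aortas, against 1, 0 and 1 counts in HuBL aortas. Without BT3xHuBL aorta replicate 2 the interaction was 0.96 for Adamts13 and 0.17 for Mmp19. Adamts1, which lay higher in BT3xHuBL in both tissues, had an interaction of −0.21 (SE 0.20, adjusted p = 0.825) in edgeR.

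Genes that act on or with these proteases were described from lists of activators and inhibitors, ADAMTS-like proteins and substrates. In the aorta none of 18, 6 and 19 tested genes was called, and the medians were −0.029, 0.17 and −0.14. Plau (urokinase), which starts the plasmin cascade that activates MMPs, had 129, 137 and 129 CPM in BT3xHuBL aortas, against 156, 165 and 169 CPM in HuBL aortas. The genotypes did not overlap, Plau lying lower in BT3xHuBL, and the log2 fold change was −0.31 (SE 0.07, adjusted p = 0.52) in edgeR. DESeq2 called it (adjusted p = 0.0259).

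Pcsk5, a convertase that cuts precursor proteins, and A2m, a broad protease inhibitor, gave −0.60 (SE 0.28) and −1.85 (SE 1.03) in the aorta. Of the substrates there 15 of 19 lay below 0, and 51.5% of all features did. Thbs1 (thrombospondin-1) had 674, 863 and 972 CPM in BT3xHuBL aortas, against 1272, 1041 and 1211 CPM in HuBL aortas, without overlap. The log2 fold change was −0.49 (SE 0.14, adjusted p = 0.888) in edgeR, and DESeq2 called it (adjusted p = 0.0462). Fn1 (fibronectin) and Eln (elastin) gave −0.26 (SE 0.12) and −0.58 (SE 0.24), and Lama4, a laminin chain, gave 0.30 (SE 0.11). The ADAMTS-like genes Adamtsl1, Adamtsl2, Adamtsl3 and Adamtsl4, whose products bind the matrix without cutting it, gave 0.21, 0.15, −0.056 and 0.19.

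In the liver none of 19 activators and inhibitors, 5 ADAMTS-like genes and 14 substrates was called, and the medians were 0.064, 0.43 and 0.25. Papln (papilin), a matrix glycoprotein related to the ADAMTS family, had 2.31, 1.32, 3.61 and 1.19 CPM in BT3xHuBL livers, against 0.504, 0.463, 0.526 and 1.01 CPM in HuBL livers. Every BT3xHuBL library lay above every HuBL library, and the log2 fold change was 1.70 (SE 0.43, adjusted p = 0.281) in edgeR. DESeq2 called it (adjusted p = 0.0378). Lrp1, the receptor that clears protease and inhibitor complexes, had 608, 741, 660.3 and 799 CPM in BT3xHuBL livers, against 429, 603, 588 and 492 CPM in HuBL livers. Its genotypes did not overlap, with a log2 fold change of 0.41 (SE 0.13, adjusted p = 0.334) in edgeR. Pzp, a broad protease inhibitor of plasma, gave 0.41 (SE 0.17), Tfpi2, a serine protease inhibitor, −0.21 (SE 0.09), and Furin, a convertase that activates Mmp14, 0.086 (SE 0.09). Adamtsl2, Adamtsl4 and Adamtsl5 gave 0.73, 0.22 and 0.43. Of the 14 substrates 13 lay above 0, among them Hspg2 (perlecan) with 0.70 (SE 0.24, adjusted p = 0.352) in edgeR, Fn1 with 0.41, Lama4 with 0.45 and Dcn (decorin) with 0.16.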

How the data were processed

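Per the labels' protocols, RNA came from Qiagen RNeasy columns and libraries from Lexogen QuantSeq V2, which reads transcript 3′ ends. The deposited values are counts per feature, not normalized. HTSeq 2.0 and GRCm38 are named in the submitters' processing notes; the sources used here give no aligner, strand setting or annotation. Members and lists were chosen with earlier results of these data known.

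Each tissue was fitted alone on the whole table with edgeR (version 4.0.16, under R 4.3.3; filterByExpr, TMM, robust quasi-likelihood F-test, two-sided, Benjamini-Hochberg, threshold 0.05). The interaction used all 14 libraries, and the tissue comparison the HuBL libraries. Log2 fold changes have a prior count of 0.125, and standard errors come from the same fit. The script was tested on simulated data. Alternatives were RLE scaling, DESeq2 1.42.0, limma-voom (3.58.1), no filter, the replicate number as a block, each library left out and, between tissues, plain library sizes. Per-library values are printed for members with an unadjusted p under 0.05, TIMPs and the 12 highest members per tissue, and listed genes by smallest p, up to 4 a list; some genes are not reported here. Positions are from GENCODE M21 and promoters from RefSeq GRCm38.p6, both by symbol. Plots used matplotlib 3.10.9. Libraries of a group were distinct (chi-square per degree of freedom 12.9 to 80.3).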

Additional observations from a re-analysis of the deposited data

Results flagged for a closer look

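Within liver groups of 4 libraries, 3 of 44 sets of member values had 1 library far from the rest by Dixon's test, where chance gives about 1 in 20. Adamts13 was 3.22 CPM in BT3xHuBL replicate 1, and 3.57 to 3.61 CPM in the other BT3xHuBL livers. These values rest on 53, 54, 56 and 60 counts in BT3xHuBL replicates 1 to 4, and Dixon's test takes no account of counting error. Mmp15 was 25.7 CPM in BT3xHuBL replicate 2, and 41.9 to 42.9 CPM in the other BT3xHuBL livers. Mmp11 was 1.41 CPM in HuBL replicate 4, and 0.504 to 0.540 CPM in the other HuBL livers.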

How the results depend on the processing

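The number of members called stayed at 0 in the aorta and in the interaction under every alternative tried, and in the liver under all but DESeq2, which called 1. Between HuBL aorta and liver 34 members were called, and 33 to 36 over all alternatives, the 33 with plain library sizes, an alternative added after the data were seen. Counts over all features moved more. In the aorta 4 were called, and 68 with DESeq2, 0 with limma-voom, 9 with no low-count filter and 0 to 27 with 1 library left out (27 without BT3xHuBL replicate 3, 2 without HuBL replicate 1, 0 without HuBL replicate 2 or 3). In the liver 0 were called, and 133 with DESeq2 and 0 to 5 with 1 library left out (5 without BT3xHuBL replicate 2, 2 without BT3xHuBL replicate 3). In the interaction 0 were called, and 44 with DESeq2 and 0 to 3 with 1 library left out (3 without BT3xHuBL liver replicate 2). With the replicate number as a block, 14 aorta and 10 liver features were called and 0 members of either tissue. Deviations of same-numbered BT3xHuBL and HuBL libraries correlated at −0.083 to 0.12 in the aorta and −0.057 to 0.19 in the liver, and between aorta and liver of the same number at 0.072 to 0.19 in BT3xHuBL and −0.0076 to 0.21 in HuBL. Each BT3xHuBL aorta correlated best with the liver of its own number, and 1 of 3 HuBL aortas did. Not every pair exceeded 0.1 and the labels name no shared animal, so the libraries were not treated as paired. With the block, 0 members were called in the interaction and 34 between tissues. Leaving out 1 library put the median log2 fold change of members at −0.083 to 0.020 in the aorta, with 14 to 21 above 0, and at 0.10 to 0.35 in the liver, with 14 to 19 above 0.

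Some log2 fold changes changed sign, not only those near 0, and the cause was not tested. In the main fit Adamts16 gave −0.33 and Mmp25 0.30 in the aorta, and Mmp12 0.18 in the liver. Some values that kept their sign still moved by over 1.5 times with 1 library left out. With 1 library left out the ranges of those that changed sign in the aorta were Adamts10 −0.14 to 0.014, Adamts12 −0.32 to 0.26, Adamts14 −0.28 to 0.038, Adamts15 −0.46 to 0.083, Adamts16 −0.77 to 0.43, Adamts2 −0.064 to 0.12, Adamts3 −0.20 to 0.34, Adamts5 −0.10 to 0.13, Adamts8 −0.41 to 0.23, Adamts9 −0.078 to 0.12, Adamtsl1 −0.30 to 0.47, Adamtsl2 −0.024 to 0.41, Adamtsl3 −0.11 to 0.043, Mmp10 −0.032 to 0.26, Mmp11 −0.10 to 0.02, Mmp14 −0.094 to 0.051, Mmp17 −0.25 to 0.20, Mmp19 −0.031 to 0.23, Mmp23 −0.021 to 0.11, Mmp25 −0.62 to 0.77 and Mmp9 −0.41 to 0.50. In the liver they were Adamts5 −0.15 to 0.28, Mmp12 −0.76 to 0.46, Mmp23 −0.18 to 0.35, Mmp27 −0.42 to 0.10, Mmp9 −0.30 to 0.25, Timp1 −0.15 to 0.28 and Timp3 −0.23 to 0.017. With limma-voom Mmp17 gave −0.035 in the aorta, and Adamts5 and Mmp12 −0.0063 and −0.27 in the liver. With the replicate block Adamts12 and Mmp17 gave −0.0050 and −0.024 in the aorta, and Mmp12 and Mmp9 −0.14 and 0.0066 in the liver. Low counts limit the 24 members not tested in the liver.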

Other observations

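BT3xHuBL liver replicate 1 was the highest of the 8 livers in Mmp2, Mmp7, Mmp9, Mmp12, Mmp13, Mmp27, Adamts1, Adamts2, Adamts3, Adamts6, Adamts9, Adamts10, Adamts14, Adamts16, Adamts17, Timp1, Timp2 and Timp3. Mmp7 was 0.971 CPM there, and 0.264, 0.322 and 0.0595 CPM in BT3xHuBL replicates 2, 3 and 4, against 0.126, 0.0771, 0.226 and 0.112 CPM in HuBL livers. Mmp13 was 2.18 CPM there, and 0.0661, 0.129 and 0.0595 CPM in the other BT3xHuBL livers, against 0.378, 0.463, 0.451 and 0.618 CPM in HuBL livers. The summed bile duct markers (7 genes) were 273, 108, 161 and 158 CPM in BT3xHuBL replicates 1 to 4, and 137, 102, 111 and 159.9 CPM in HuBL replicates 1 to 4. BT3xHuBL liver replicate 1 led some genes narrowly. Adamts17 had 3 counts in it and 3 in BT3xHuBL replicate 4, and Adamts3 had 8 and, in BT3xHuBL replicate 3, 7. Mmp9 had 23 counts in it and 22 in HuBL replicate 1. The share of all features that were highest in this library was not computed. This library was chosen for description after its values were seen.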
